A study of Arabidopsis thaliana with 11 samples.

Results

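Transcripts of 3 photorespiration enzymes were followed across leaf, stem and flower of Arabidopsis thaliana Columbia-0. The genes were HPR (AT1G68010), which encodes the peroxisomal hydroxypyruvate reductase, AT1G80380, which encodes the chloroplast glycerate kinase, and AT1G11860, which encodes the T protein of mitochondrial glycine decarboxylase. They were chosen as the probe sets of the ATH1 GeneChip that the platform table paired with exactly 1 gene under these names, which gave 3 of the 22810 probe sets. A second probe set that lists HPR together with another gene was left out. All 3 genes passed the minimum signal for testing.

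Photorespiration recovers carbon after the oxygenase reaction of rubisco, which makes phosphoglycolate in place of a useful product. The glycolate formed from it leaves the chloroplast and is oxidised and aminated to glycine in peroxisomes, and glycine decarboxylase in mitochondria, a complex of P, H, T and L proteins, then works with serine hydroxymethyltransferase to turn glycine into serine. In peroxisomes serine gives hydroxypyruvate, which HPR reduces to glycerate, and glycerate kinase returns this to the Calvin cycle as phosphoglycerate. The pathway is a hallmark of green, photosynthesising cells, and its enzymes are abundant in leaf mesophyll.

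All plants were wild type, and the labels name no agent applied to them. Expanding leaves were taken on day 15 after germination (3 arrays). The expanding upper 2 inches of the stem, without siliques and pedicels, and developed flowers together with closed buds were taken on day 29 (4 arrays each), all in the middle of the light period where the labels give the time. Day and night temperatures were 25 °C and 20 °C. The photoperiod was given as 16 h for every array but flower replicate 4, for which none was found. Plants stood in a growth chamber under an irradiation given as 125 µmol, or in a greenhouse. The labels place 5 arrays in each of these sites, and for stem replicate 4 the title code and the protocol text differ. RNA was prepared with Trizol for leaf, and with Trizol and a silica column for stem and flower, so age and preparation went with leaf against the other tissues and cannot be told apart from tissue there. By the labels each tissue has replicates in both sites, and these must be different plants. Nothing in the labels says whether replicates of the same site came from separate plants. The p-values therefore refer to the spread between these samples only, part of which may be technical.

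The deposited signal had a median of 244 to 251 per flower array, 195 to 201 per leaf array and 192 to 201 per stem array. Probe sets at or over 100 made up 69.4% to 71.7% in flower, 64.9% to 65.8% in leaf and 65.7% to 66.8% in stem. The distribution of signal thus went with flower against the other tissues, and quantile normalisation sets it equal. The part of this in the contrasts with flower was not tested. Of the marker genes listed for flower and stem, the 6 tested flower genes, among them the anther β-glucosidase gene ATA27 and the tapetum gene AMS, were called higher in flower than in leaf and in stem. The 3 tested stem genes for secondary wall xylan, IRX15, IRX15-L and GUT2, were called higher in stem than in both other tissues. Of all tested probe sets 9.17% were called higher in flower than in leaf and 9.33% in stem than in leaf. Between flower and stem 1728 of 17526 were called higher in flower and 1420 lower. AMS, ATA27, AT5G07230, PLIM2a and ANX2 stayed under the minimum signal of 100 on every leaf and stem array, and IRX15 on every leaf and flower array. These genes entered the test only through the tissue where they are high, so their calls are no independent check. Floral identity genes and the cellulose synthase genes of the secondary wall were not analysed here. Stem replicate 3 stood apart in RNA quality, with 3'/5' signal ratios of 12.2 for actin and 13.0 for GAPDH, against at most 4.2 and 2.3 in the other stem arrays. Flower replicate 3 was the highest of its tissue, at 8.23 and 5.45. The ubiquitin ratio was 1.24 to 1.62 in leaf and 1.97 to 2.21 in flower, so this ratio moved with the contrast of these tissues. The other ratios had higher medians in flower but overlapped between the tissues. Actin was at 1.83 to 3.29 in leaf and 3.22 to 8.23 in flower, and GAPDH at 2.25 to 2.61 and 2.15 to 5.45.

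By tissue means all 3 transcripts were highest in leaf, intermediate in stem and lowest in flower, though stem and leaf arrays overlapped for HPR and AT1G11860. The order of stem and leaf for AT1G11860 also depended on the scaling of the arrays, as given below. Intensities below are normalised and linear, and they can be compared between arrays for 1 gene but not between genes, since each probe set binds its target differently. Because the arrays measured whole organs, fewer green cells and less of a transcript per cell cannot be told apart.

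HPR had an intensity of 11190, 14164 and 12713 in leaf replicates 1 to 3. In stem replicates 1 to 4 it was 7739, 7292, 11362 and 7640, and in flower 3558, 3876, 4766 and 3463. Every flower array lay below every stem and leaf array, and stem replicate 3 alone reached into the leaf range. Leaf averaged 12689 ± 1487 (SD, n = 3), stem 8508 ± 1912 and flower 3916 ± 594 (SD, n = 4 each).

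AT1G80380, whose product catalyses the last step of the cycle, had an intensity of 3002, 2428 and 2932 in leaf. It was 1370, 1603, 1954 and 1709 in stem and 653, 1045, 1093 and 1130 in flower. The tissues did not overlap for this gene, and the lowest flower array was replicate 1. Leaf averaged 2787 ± 313 (SD, n = 3), stem 1659 ± 242 and flower 980.1 ± 221 (SD, n = 4 each).

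AT1G11860, whose product releases ammonia from glycine and passes the remaining methylene group to tetrahydrofolate, had an intensity of 4918, 6919 and 6305 in leaf. In stem it was 4435, 4420, 5460 and 4495, and in flower 2596, 2575, 2958 and 2095. Flower stood below both other tissues on every array, and stem replicate 3 again lay above leaf replicate 1. Leaf averaged 6047 ± 1025 (SD, n = 3), stem 4702 ± 506 and flower 2556 ± 354 (SD, n = 4 each). An order of leaf over stem over flower without any overlap of arrays was held by AT1G80380 alone among the 3, and by 2.1% of all 17526 tested probe sets. Of the related genes described below, AT1G32470, RCA and PRK also held it. LrgB, AT1G79870, AT2G35120, SBPASE, LHCB4.1 and LHCB4.2 did not. By tissue means alone all 3 held this order, as did 19% of tested probe sets.

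**Figure D1:**
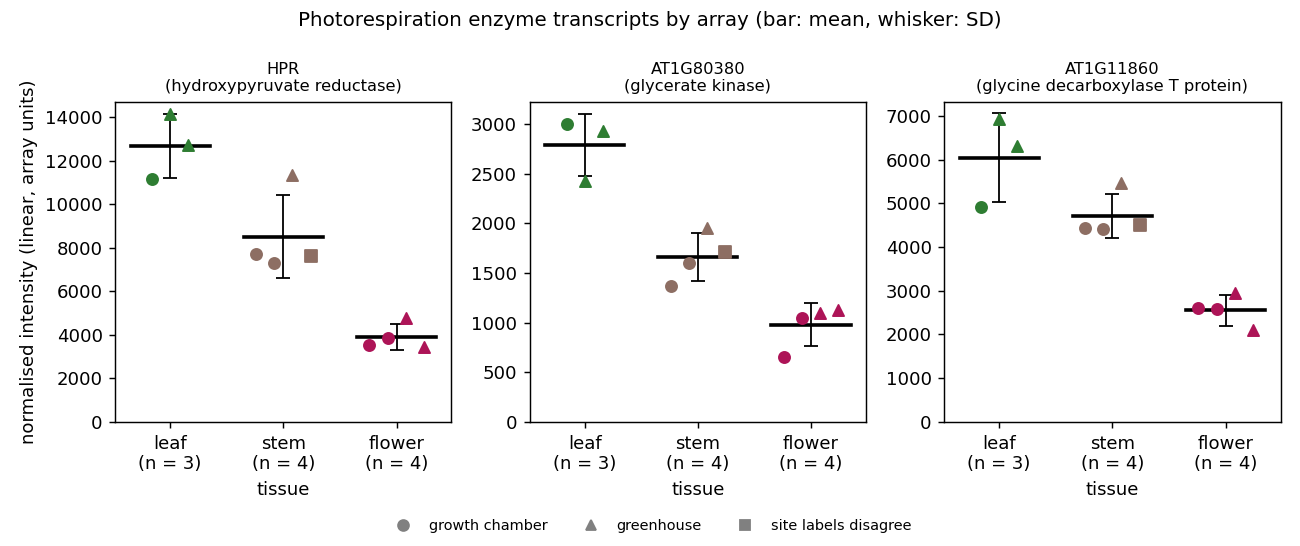
Normalised intensity (linear axis from 0) of HPR, AT1G80380 and AT1G11860 on each array, with the mean and SD of each tissue; circles are growth chamber, triangles greenhouse, and the square is stem replicate 4, whose site labels differ. Flower arrays lie below all stem and leaf arrays for every gene, and stem replicate 3 (11362 for HPR, 5460 for AT1G11860) is above the other stem arrays.

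The contrast of flower with leaf compared the transcripts of the 3 genes between these whole organs. Differences were fitted with limma on the log2(intensity + 32) scale. The word called stands for an adjusted p (Benjamini-Hochberg, over all tested probe sets) under 0.05 together with a log2 fold change of at least 1 in size. All 3 genes were called lower in flower, as were 9.27% of tested probe sets. HPR was 3.23-fold lower on this scale, with a log2 fold change of -1.69 (95% interval -2.08 to -1.31, adjusted p = 7.9e-06). AT1G80380 was 2.83-fold lower, at -1.50 (-1.92 to -1.08, adjusted p = 5.1e-05), and AT1G11860 was 2.34-fold lower, at -1.23 (-1.58 to -0.88, adjusted p = 5.7e-05). Arrays of flower and leaf did not overlap for any of the 3, as for 21.6% of tested probe sets that were lower in flower. The median of the 3 was -1.50, and that of all tested probe sets -0.02. The part of the higher ubiquitin 3'/5' ratio of flower in these differences was not tested. Without both stem replicate 3 and flower replicate 3, a setting chosen after seeing the data, HPR was at -1.80, AT1G80380 at -1.56 and AT1G11860 at -1.30, all called.

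Scaling decided the call for AT1G80380 and AT1G11860. With each array set to the same signal of GapC, the glycolytic gene that the labels name as the standard, they stood at -0.92 and -0.84 and were no longer called, while HPR stayed called at -1.45. Under that scaling the median of all probe sets was 0.695, and relative to it the 3 genes were at -2.14 (HPR), -1.61 (AT1G80380) and -1.53 (AT1G11860). Subtracting the median largely cancels the GapC factor of each array, so these relative values do not test the scaling.

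In the contrast of expanding stem with expanding leaf, none of the 3 genes was called, and 9.33% of tested probe sets were called lower in stem. AT1G80380 had the most negative value of the 3, with a log2 fold change of -0.74 (95% interval -1.16 to -0.32, adjusted p = 0.0093). HPR was at -0.59 (-0.98 to -0.21, adjusted p = 0.019). Both had an adjusted p under 0.05 in this fit and missed the minimum fold. At any fold 18.5% of tested probe sets were lower in stem with an adjusted p under 0.05. Leaving out single arrays, the limma adjusted p ran from 0.0018 to 0.093 for HPR and from 0.0026 to 0.041 for AT1G80380. With site as a covariate and without stem replicate 4 it was 0.058 and 0.027. With GapC scaling it was 0.54 and 0.69. AT1G11860 was at -0.35 (-0.70 to -0.003, adjusted p = 0.11). Of these intervals only that of AT1G80380 reaches a log2 value of -1. Arrays of stem and leaf did not overlap for AT1G80380, as for 21.4% of tested probe sets that were lower in stem. With GapC scaling HPR and AT1G80380 were at -0.21 and -0.15 and AT1G11860 turned to 0.19, where the median of all probe sets was 0.463.

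Flower and stem were of the same age and were prepared in the same way, so neither went with tissue in this contrast. HPR fell by 1.10 on the log2 scale, a 2.14-fold difference (95% interval -1.46 to -0.75, adjusted p = 1.6e-04). AT1G11860 was at -0.88 (-1.20 to -0.55, adjusted p = 4.7e-04) and AT1G80380 at -0.76 (-1.15 to -0.37, adjusted p = 0.0049), both short of the minimum fold. All 3 had an adjusted p under 0.05, as did 17.4% of tested probe sets lower in flower at any fold. So 1 of the 3 was called, where 8.1% of tested probe sets were called lower in flower, and no array of flower overlapped stem for any of them, as for 16.3% of tested probe sets. The call for HPR rested on stem replicate 3, since without that array its value was -0.95 and 0 of the 3 were called, although without both that array and flower replicate 3 it was called at -1.05. Scaling moved the count in the other direction, to 2 of 3 with trimmed mean or GapC scaling and 3 of 3 with median centring. In median centring HPR was at -1.60, AT1G11860 at -1.39 and AT1G80380 at -1.13.

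**Figure D2:**
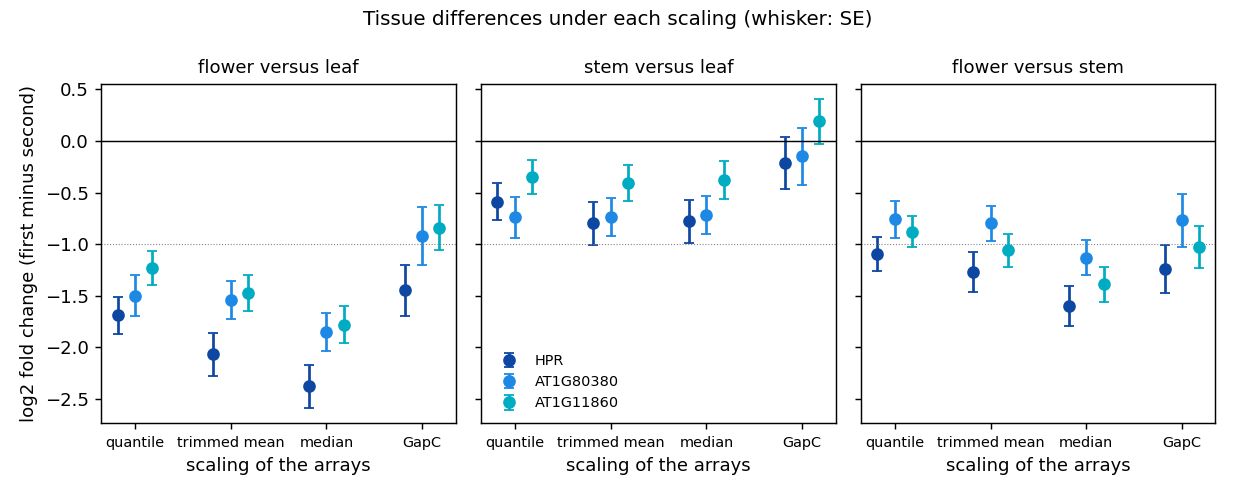
Log2 fold changes with SE of the 3 genes in each tissue contrast under 4 scalings of the arrays; the dotted line marks the minimum fold of -1. HPR stays below -1 in flower versus leaf under each scaling, and AT1G11860 crosses 0 in stem versus leaf with GapC scaling (0.19).

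Whether the enzymes changed to the same extent was examined with the log2 difference of 2 genes within each array, in which a scaling factor of the array cancels for strong signals, although quantile normalisation does not. The level of such a difference has no meaning between probe sets, but its change between tissues does. HPR minus AT1G11860 was 1.18, 1.03 and 1.01 in leaf. It was 0.80, 0.72, 1.05 and 0.76 in stem, and 0.45, 0.58, 0.68 and 0.72 in flower. The flower arrays lay below all others, though only just, since the highest flower value was 0.716 and the lowest stem value 0.718. This difference changed by -0.47 log2 units from leaf to flower (raw p = 0.0286, exact permutation test, two-sided, 35 splits) and by -0.23 from stem to flower (raw p = 0.0286, exact, 70 splits). This is the smallest p that these numbers of arrays allow, and after adjustment over the 9 comparisons of pairs it was 0.129, so neither passed. With only these 2 comparisons at that p, the adjustment could not give a pass whatever the size of their differences.

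The other 7 comparisons did not pass either. HPR minus AT1G80380 changed by -0.19 from leaf to flower (exact permutation p = 0.486, adjusted p = 0.579), and its SD within leaf was 0.33 and within flower 0.34. AT1G80380 minus AT1G11860 changed by -0.27 (exact permutation p = 0.429, adjusted p = 0.579), with an SD of 0.40 in leaf and 0.44 in flower. Flower replicate 1 gave the lowest value of this difference (-1.94) and leaf replicate 1 the highest (-0.71). The change of HPR minus AT1G80380 from leaf to flower depended on the normalisation, at -0.53 with trimmed mean scaling alone (exact permutation, adjusted p = 0.21). A difference in the change of glycerate kinase from that of the other enzymes was not detectable with this number of arrays.

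**Figure D3:**
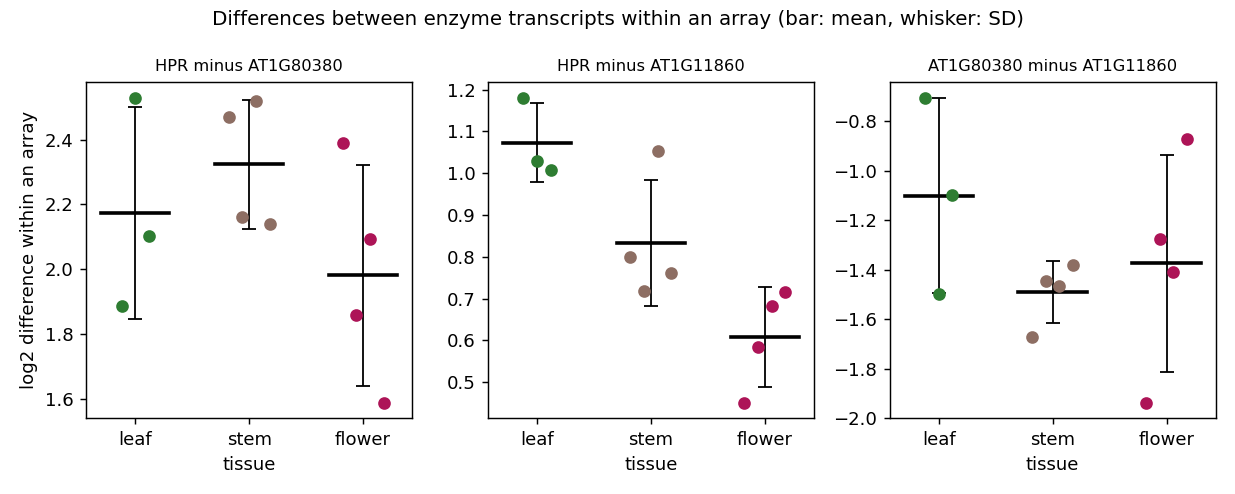
Log2 difference of 2 genes within each array, by tissue, with the mean and SD (leaf n = 3, stem and flower n = 4). HPR minus AT1G11860 steps down from leaf (mean 1.07) to flower (mean 0.61) without overlap, whereas the other pairs overlap between all tissues.

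Growth site was the other labelled difference among the plants. HPR was higher in the greenhouse than in the growth chamber by 0.30 ± 0.13 (SE) on the log2 scale in a fit with tissue as a covariate (10 arrays, limma adjusted p = 0.433). AT1G80380 was at 0.24 ± 0.16 (adjusted p = 0.608) and AT1G11860 at 0.18 ± 0.13 (adjusted p = 0.628). With limma none of the 3 was called, and 0 of the 17392 probe sets tested in this contrast were (0%), although 11.1% of them, with HPR, had an unadjusted p under 0.05. For HPR this limma p was 0.0389. The stated GapC factors of stem replicates 2 and 3 fit each other's arrays, as do those of flower replicates 2 and 3, and each pair holds both sites. With the sites of these pairs exchanged, a setting chosen after seeing the data, HPR was at -0.10, AT1G11860 at -0.03 and AT1G80380 at 0.09.

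A difference of the site effect between tissues was not called for any of the 3 genes, with adjusted p of 0.594 for HPR, 0.596 for AT1G80380 and 0.568 for AT1G11860, where 0.77% of tested probe sets passed and 15.2% had an unadjusted p under 0.05. Within the growth chamber the log2 difference of flower from leaf was -1.58 for HPR, -1.82 for AT1G80380 and -0.92 for AT1G11860, with 2 flower arrays and 1 leaf array. Within the greenhouse, with 2 arrays each, it was -1.72, -1.24 and -1.40 in the same order. Flower from stem ran from -1.01 to -0.77 over the 3 genes in the growth chamber and from -1.48 to -0.80 in the greenhouse. Stem from leaf ran from -1.0 to -0.15 in the growth chamber and from -0.44 to -0.24 in the greenhouse. With sites as labelled, the order of the tissue means held within each site for all 3 genes, where the greenhouse stem value is stem replicate 3 alone and the growth chamber leaf value leaf replicate 1 alone. With the pairs exchanged, the log2 difference of stem from leaf in the growth chamber was 0.001 for AT1G11860 and -0.25 for HPR, with overlap for both, and all differences but that of AT1G11860 kept their sign.

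Beyond these 3 genes, 4 other loci of a list of 32 photorespiration genes had a probe set paired with 1 gene, and all 4 were tested. LrgB (AT1G32080), entered on the list as PLGG1, encodes the plastid glycolate and glycerate translocator, which exports glycolate from the chloroplast and takes up the glycerate that HPR makes. Its intensity was 5001, 6317 and 6377 in leaf, 3236, 3661, 5093 and 3996 in stem and 1885, 2242, 2349 and 2276 in flower. It fell in flower against leaf, with a log2 fold change of -1.41 ± 0.17 (SE, adjusted p = 2.4e-05), and stood at -0.57 in stem against leaf and -0.84 in flower against stem without being called. The latter was called at -1.02 with trimmed mean scaling and at -1.35 with median centring. As with HPR, stem replicate 3 was its highest stem array.

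The H protein of glycine decarboxylase carries the reaction intermediate between the other subunits, and 2 of its loci on the list were measured. AT1G32470 was at 6206, 7122 and 7254 in leaf, 4509, 4280, 6071 and 5307 in stem and 3395, 3231, 3085 and 3348 in flower, and it fell in flower against leaf (log2 -1.06 ± 0.15 SE, adjusted p = 7.9e-05). With GapC scaling it was at -0.74 there and not called, and with median centring it was called in flower against stem at -1.16. AT2G35120 was lowest in leaf, at 802, 813 and 606, and highest in stem, at 3850, 4012, 3546 and 3407. Its flower arrays, at 1949, 1970, 1449 and 1369, lay between, so that no tissue overlapped another. Of all tested probe sets 17.9% lay without overlap higher in stem than in leaf, and 20.4% higher in flower than in leaf. AT2G35120 rose in stem against leaf by 2.28 ± 0.17 (SE), a 4.87-fold difference (adjusted p = 5.5e-07), and in flower against leaf by 1.14 ± 0.17 (adjusted p = 1.6e-04), where 9.33% and 9.17% of tested probe sets were called higher. It fell in flower against stem by 1.14 ± 0.16 (adjusted p = 8.3e-05). The rise in flower against leaf was no longer called with median centring, at 0.81.

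AT1G79870, entered on the list as HPR2, the gene of a cytosolic hydroxypyruvate reductase that acts beside the peroxisomal enzyme, varied least of the 7 between tissue means. It averaged 1366 ± 133 (SD, n = 3) in leaf, and 1049 ± 101 and 911 ± 221 (SD, n = 4 each) in stem and flower. It was not called in any contrast, with log2 fold changes of -0.59 in flower against leaf (adjusted p = 0.021), -0.37 in stem against leaf (adjusted p = 0.13) and -0.22 in flower against stem (adjusted p = 0.33). Its value in flower against leaf thus passed the adjusted p at any fold, as did 16.1% of tested probe sets lower in flower. The first of these 3 values turned to 0.03 and the second to 0.21 with GapC scaling. Whether its change differed from that of HPR was not tested.

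Over the 7 photorespiration genes tested, 5 were called lower and 1 higher in flower against leaf, with a median of -1.23. In stem against leaf 0 were called lower and 1 higher, with a median of -0.45. In flower against stem 2 were called lower, with a median of -0.84. By sign alone 6, 6 and 7 of the 7 were lower in these contrasts. The shares of all tested probe sets were 51.2%, 52.5% and 52.1%. The counts of calls moved with the scaling. With GapC scaling 2 genes (HPR and LrgB) were called lower in flower against leaf. With median centring 0 were called higher there, where AT2G35120 was at 0.81 (limma adjusted p = 0.0032) and missed the minimum fold. In flower against stem 3 were called lower with GapC scaling, 4 with trimmed mean scaling, 6 with median centring and 1 without stem replicate 3. The medians over all tested probe sets were -0.02, -0.04 and -0.03, and of all tested probe sets 18.4%, 18.7% and 18% were called in either direction. The 3 Calvin cycle genes tested (RCA, PRK and SBPASE) had medians of -1.30, -0.49 and -0.87 in the same contrasts and the 2 light-harvesting genes (LHCB4.1 and LHCB4.2) -1.43, -0.40 and -1.03. These genes were 3 of the 19 Calvin cycle loci and 2 of the 20 light-harvesting loci listed, so their medians do not describe whole pathways. All 5 of these were called lower in flower against leaf and 0 were called in stem against leaf. In flower against stem only LHCB4.2 was called lower, though all 5 had negative values. With GapC scaling SBPASE was not called in flower against leaf. In flower against stem 4 of the 5 were called lower with GapC or trimmed mean scaling, and 5 with median centring. Each of the 3 contrasts shares the arrays of a tissue with the others, so their values are not independent.

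**Figure D4:**
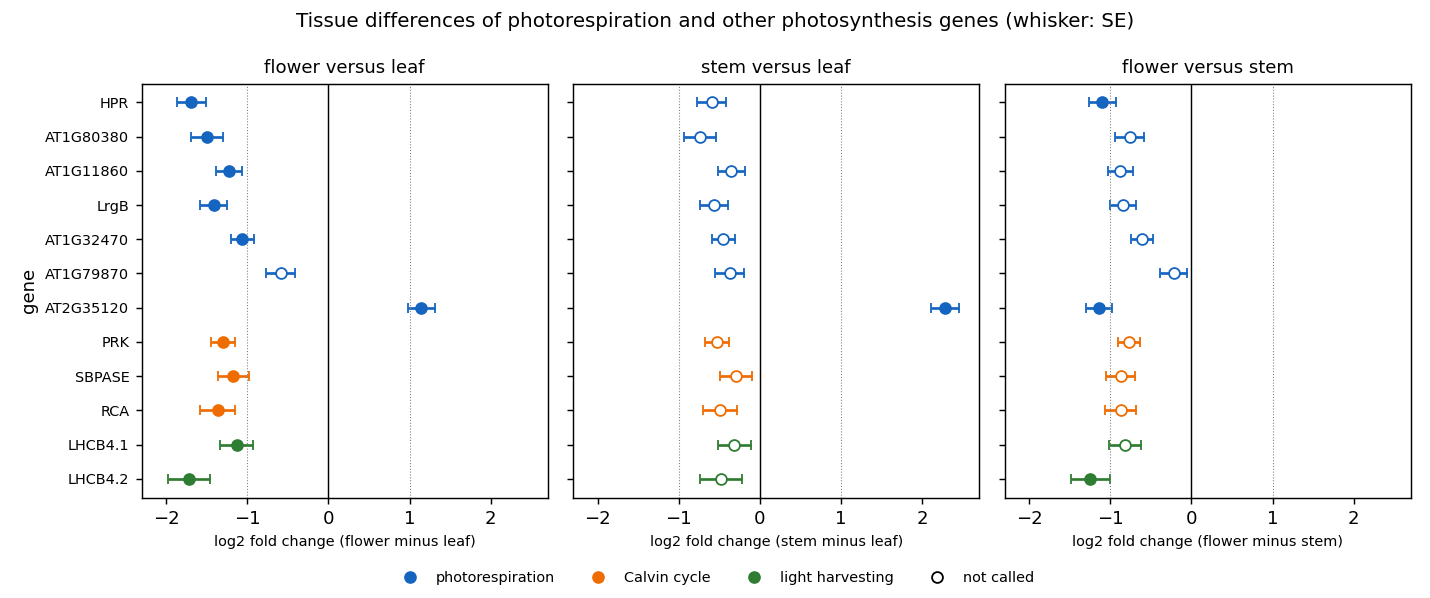
Log2 fold change with SE of the 7 photorespiration genes, 3 Calvin cycle genes and 2 light-harvesting genes in the 3 tissue contrasts; filled points were called and open points were not. AT2G35120 lies apart from the other photorespiration genes, at 1.14 in flower versus leaf and 2.28 in stem versus leaf.

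Profiles over the 11 arrays were compared by the root mean square difference of log2 values, each gene centred on its own mean, among the 9810 tested probe sets paired with 1 gene. The profile nearest to the mean of the 3 enzymes was that of LrgB, at 0.09 log2 units, followed by PRK, phosphoribulokinase of the Calvin cycle, at 0.16, AT1G52590 at 0.17, AT3G61870 at 0.17 and AT5G03880 at 0.17. LrgB was also nearest to HPR alone (0.18) and to AT1G80380 alone (0.20). These arrays share tissue, scaling and RNA, so likeness is a description of profiles only.

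The nearest profiles to HPR after LrgB were AT4G17370, AT4G24930, AT1G11860 and AT3G61870, at 0.20 to 0.22. Those nearest to AT1G80380 after LrgB were AT1G73110, AT5G03880, AT1G52590 and AT2G27290, again at 0.20 to 0.22. AT1G11860 was nearest to AT3G61870 (0.13), AT1G26220, AT4G13010, the Calvin cycle gene SBPASE (0.16) and PRK (0.17). HPR ranked 15th among the profiles nearest to AT1G11860 and 47th among those nearest to AT1G80380. AT2G35120, the stem-high H protein gene, was 1.25 log2 units from the mean profile and ranked 8987th of 9807.

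**Figure D5:**
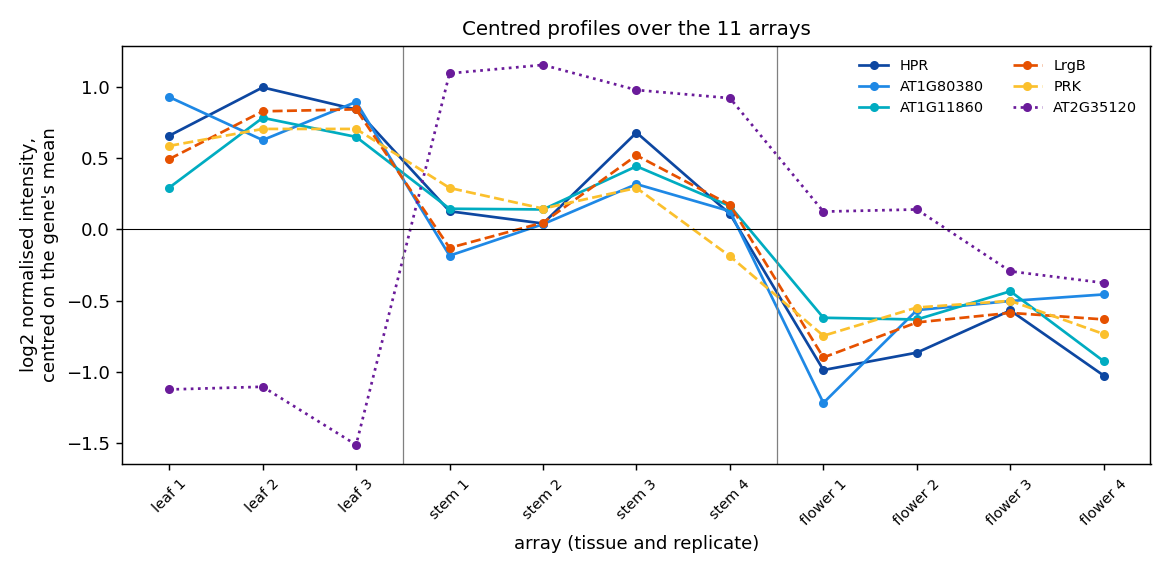
Log2 normalised intensity, centred on each gene's mean, over the 11 arrays in order of tissue; vertical lines part leaf, stem and flower. LrgB (dashed) runs with the 3 enzymes at a distance of 0.09 from their mean profile, and AT2G35120 (dotted) is low in leaf and high in stem.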

How the data were processed

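Microarray Suite 5.0 signal intensity was deposited by the authors for 11 ATH1 GeneChips with a target of 500, per the labels' protocols. The GapC factor that the labels state is not part of the deposited intensity: each array kept a 2% trimmed mean of 500, and for 7 of 11 arrays GapC times its factor came within 1 unit of 8500. Control probe sets (64) were left out. Arrays were quantile normalised and transformed as log2(value + 32). The 17526 probe sets with an intensity of at least 100 on at least 3 arrays were tested. The deposited detection calls were set aside.

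One fit with limma 3.58.1 in R 4.3.3 (lmFit, eBayes with an intensity trend) covered the 3 tissues, and p-values are two-sided. The pipeline was tested on simulated data. The number of arrays limits the precision. No columns were left unused.

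The platform table paired 13513 probe sets with 1 gene and 503 with several; a gene table of assembly TAIR10.1, used for names only, matched 13436. Roles of loci without a described name follow the pathway list. The members, gene lists and tests were chosen with earlier results of these data known. The named genes were the 3 members, all tested loci of the photorespiration, Calvin cycle and light-harvesting lists, and the 5 nearest profiles per member and for their mean. Settings varied were scaling, pseudocount, signal minimum, intensity trend, minimum fold, site, replicate block, tissues fitted and each array left out. No sequence and no promoter motif is shown, since sequence tables were not used here.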

Additional observations from a re-analysis of the deposited data

Results flagged for a closer look

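Single arrays were compared with the rest of their tissue in 24 groups of 4 arrays (12 genes in stem and in flower), of which about 1 in 20 stands out by chance at the 95% level of Dixon's test. In stem replicate 3 HPR was at 11362.4, against 7292.1 to 7739.4 in the other stem arrays (gap over range 0.89). AT1G11860 was at 5460.3 in the same array, against 4420.3 to 4494.6 (0.929). This array had the highest 3'/5' ratios of the study, 12.2 for actin, 13.0 for GAPDH and 2.72 for ubiquitin, and it is labelled greenhouse, although its stated GapC factor fits the signal of stem replicate 2, labelled growth chamber. The part of RNA quality and of site in these values was not tested. SBPASE was at 6447.5 in flower replicate 4, against 7324.5 to 7500.7 in the other flower arrays (0.833).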

How the results depend on the processing

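With arrays scaled to GapC the median of all probe sets moved to 0.695 in flower against leaf, 0.463 in stem against leaf and 0.172 in flower against stem, so calls lower made up 10.5%, 14.3% and 34% of all calls, against 50.3%, 50% and 45.1% in the main setting. In flower against leaf AT1G80380 (-0.92) and AT1G11860 (-0.84) were then not called, 1 member was called, and AT1G79870 stood at 0.03. There 5083 probe sets were called higher and 595 lower. The photorespiration list then held 2 genes called lower in that contrast, with AT1G32470 at -0.74 and not called. In stem against leaf AT1G11860 (0.19), AT1G32470 (0.06) and AT1G79870 (0.21) changed sign, with 3687 probe sets called higher and 614 lower. In flower against stem AT1G11860 was called at -1.03 and 2 members were called. With trimmed mean scaling alone AT1G11860 was called there at -1.06 (2 members), and with median centring AT1G80380 (-1.13) and AT1G11860 (-1.39) were (3 members). In this contrast 4 genes of the list were called lower with trimmed mean scaling and 6 with median centring, LrgB among them (-1.02 and -1.35). With median centring 0 were called higher in flower against leaf, where AT2G35120 was at 0.81. These scalings split calls at 40.9% and 60.8% lower in flower against leaf and 35.7% and 60.6% in flower against stem. Over the 4 scalings the members lay below the median of all probe sets in each contrast, by log2 differences of -2.24 to -1.21 (flower against leaf), -0.76 to -0.27 (stem against leaf) and -1.44 to -0.73 (flower against stem). GapC, trimmed mean and median scaling each multiply an array by a single factor, which subtracting the median largely cancels. Their values relative to the median are thus alike by construction and do not count as separate support. HPR minus AT1G80380 in stem against leaf, 0.15 in the main setting, was -0.05 with GapC scaling and -0.06 with each of the other 2. Without a minimum fold, HPR (-0.59) and AT1G80380 (-0.74) were called in stem against leaf (2 members; 2791 probe sets higher, 3246 lower), AT1G80380 (-0.76) and AT1G11860 (-0.88) in flower against stem (3 members; 3176 and 3044), and 2782 and 2830 probe sets in flower against leaf. The causes were not tested, beyond the shift of the median that a scaling makes.

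Leaving out each array in turn, 3 members were called in flower against leaf each time, with HPR at -1.80 to -1.60, AT1G80380 at -1.59 to -1.33 and AT1G11860 at -1.36 to -1.11, and 0 in stem against leaf. In flower against stem HPR ranged from -1.20 to -0.95 and 0 to 1 members were called. Without stem replicate 3, 0 members and 1 gene of the list were called lower. AT1G80380 minus AT1G11860 in flower against stem ranged from -0.05 to 0.31, the former without flower replicate 4. Without the 4 arrays of exchanged GapC factors, a setting chosen after seeing the data, 1145 probe sets were called higher in flower against stem, with fewer arrays fitted, and 3, 0 and 1 members were called lower in the 3 contrasts.

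For growth site, 0 to 14 probe sets were called when single arrays were left out (14 without leaf replicate 1) and 1 with stem replicate 4 taken as greenhouse. AT1G11860 was at -0.05 in the flower arrays alone, and with the pairs exchanged HPR was at -0.10 and AT1G11860 at -0.03. The count of probe sets whose site effect differed between tissues, 134, was 244 with GapC scaling, 204 with trimmed mean scaling, 234 with median centring and 67 without a signal minimum.

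Replicate numbers were not taken to pair the samples, since not every correlation of same-numbered samples was over 0.1. The correlation of deviations from the tissue mean was -0.161 to 0.15 over 10 pairs of tissues with the same number and -0.176 to 0.14 over 30 with different numbers, and it was over 0.1 in 3 and 1 of these. Between stem and flower alone the 4 same-numbered pairs ranged from 0.089 to 0.15 and 8 of 8 arrays correlated best with their own number, a hint from the data and not from the design. With the replicate number as a block HPR was at -1.64, AT1G80380 at -1.55 and AT1G11860 at -1.17 in flower against leaf, no member's call in a tissue contrast changed, and the site effect of AT1G80380 was -0.42, with 1 probe set called. Pseudocounts of 1 and 100, a signal minimum of 200, no intensity trend, site as a covariate and fits of only 2 tissues changed no member's call. The motif search in promoters was not run. The 3 or 4 arrays per tissue limit the precision, and the members' signals were all above 100.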
